A study of Homo sapiens with 12 samples.

Results

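Cultures of HCT116, a long-established line from a human colorectal carcinoma, were exposed for 24 h to 20 nM dolastatin 15 or to its solvent DMSO, and the polyadenylated RNA of 2 libraries per group was sequenced. The comparison uses 4 of the 12 libraries of the study: libraries 7 and 8 hold RNA of cells given 20 nM dolastatin 15, and libraries 11 and 12 hold RNA of cells given solvent alone. All cells, treated or not, were of this 1 line and had the same solvent share in a serum-reduced medium. The other 8 libraries are 20 nM, 100 nM and solvent at 16 h and 100 nM at 24 h, and they served for the spread between libraries and for comparisons of time and dose. The samples are labelled as duplicates, with no word on whether separate cultures were used. A p-value here therefore covers the spread between libraries alone, and that spread may be technical. Values are FPKM, fragments per kilobase of transcript scaled to the mapped fragments of the library. A gene passed the test, and is said to have risen or fallen, when its limma adjusted p was under 0.05. Log2 changes are 20 nM minus solvent on the log2(FPKM + 1) scale, which understates the change of low genes.

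Dolastatin 15 is a peptide first isolated from a marine mollusc. It binds tubulin and blocks the assembly of microtubules, the hollow polymers of alpha and beta tubulin that form the mitotic spindle and carry traffic between divisions. Cells without a working spindle halt in mitosis through the spindle assembly checkpoint, and many later leave mitosis without dividing or die. Free tubulin that is not in polymers also feeds back on tubulin synthesis: the factor TTC5 binds the first amino acids of a new alpha or beta tubulin chain at the ribosome and brings in the CCR4-NOT complex, which degrades the mRNA.

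Of 58174 genes in the table, 13458 had at least 1 FPKM in at least 2 of the 12 libraries and were tested. A gene under 1 FPKM with solvent was thus tested only if treated libraries were higher, which favours rises among such genes. At 24 h, 3880 genes (28.8%) passed, 1984 higher (14.7%) and 1896 lower (14.1%) with 20 nM than with solvent. Most changes were small: 84 of these genes changed by at least 1 on the log2 scale, and the median change of all tested genes was 0.00. Both 20 nM libraries lay above both solvent libraries in 31.5% of the tested genes and below both in 31.1%. Low values of genes with 1 transcript followed steps of whole fragments, which gave estimated depths of 33500000 and 34500000 fragments for the 20 nM libraries, against 37500000 and 35000000 for the solvent libraries. These are estimates from the values alone. Among epithelial markers, EPCAM, KRT8, KRT18 and KRT19 had between 212 and 429 FPKM in the 4 libraries, CDH1 3.03 to 3.79 FPKM and the intestinal factor CDX2 11.9 to 17.4 FPKM, while CDX1 was listed at 0 and VIL1 and CDH17 reached at most 0.220 FPKM. Of 19 markers of fibroblast, endothelial, immune and neuronal cells, 16 were under 1 FPKM in all 4 libraries and 4 of these were listed at 0 in all, and the sum over the 19 was 21.9 and 26.7 FPKM in the 20 nM libraries, against 19.2 and 20.2 FPKM in the solvent libraries. The 3 markers that were tested are CD68, a lysosomal protein of macrophages that other cells also make, which rose (14.3 and 18.9 against 9.16 and 11.5 FPKM, log2 change 0.63), MAP2, a neuronal microtubule-associated protein, which fell (1.94 and 2.56 against 3.33 and 3.42 FPKM, -0.44), and COL1A1, which did not pass (3.29 and 3.23 against 4.34 and 3.66 FPKM). Their part in the results was not tested. CD68 lost its call without library 8 or 11 (limma adjusted p = 0.0518 and 0.0747). MAP2 did so without library 7, 11 or 12 (0.128, 0.0874 and 0.0993).

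The sum of FPKM over all genes was 1048249 and 1049886 in the 20 nM libraries, against 911720 and 929715 in the solvent libraries. Genes of the mitochondrial genome held 24.8 ± 1.42% of it with 20 nM (23.8% and 25.8%) and 18.2 ± 0.441% with solvent (17.9% and 18.6%; SD, n = 2 each). The ranges did not overlap, and the exact two-sided permutation p was 0.333, the smallest that 2 against 2 libraries can give. The shares with solvent at 24 h were also below those of the 6 libraries of the 16 h groups (21.6% to 24.5%) and of 100 nM at 24 h (18.8% and 20.7%). A library with a larger sum changes what a common scale means. Rescaled to a common sum over all genes, 573 genes rose and 4662 fell, and the median change of all genes moved to -0.16. Rescaled to a common sum over nuclear genes, 1329 rose and 2686 fell, with a median of -0.06, and under median-of-ratios scaling 2026 rose and 1916 fell, with a median of 0.00. Counts under the first 2 of these scalings are therefore given beside each gene list below, in the order higher and lower. They are for 20 nM against solvent at 24 h. List counts at 16 h, between times and between doses are on the deposited scale alone. The counts of each list on the deposited scale are to be read against the 14.7% of all tested genes that rose and the 14.1% that fell.

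**Figure D1:**
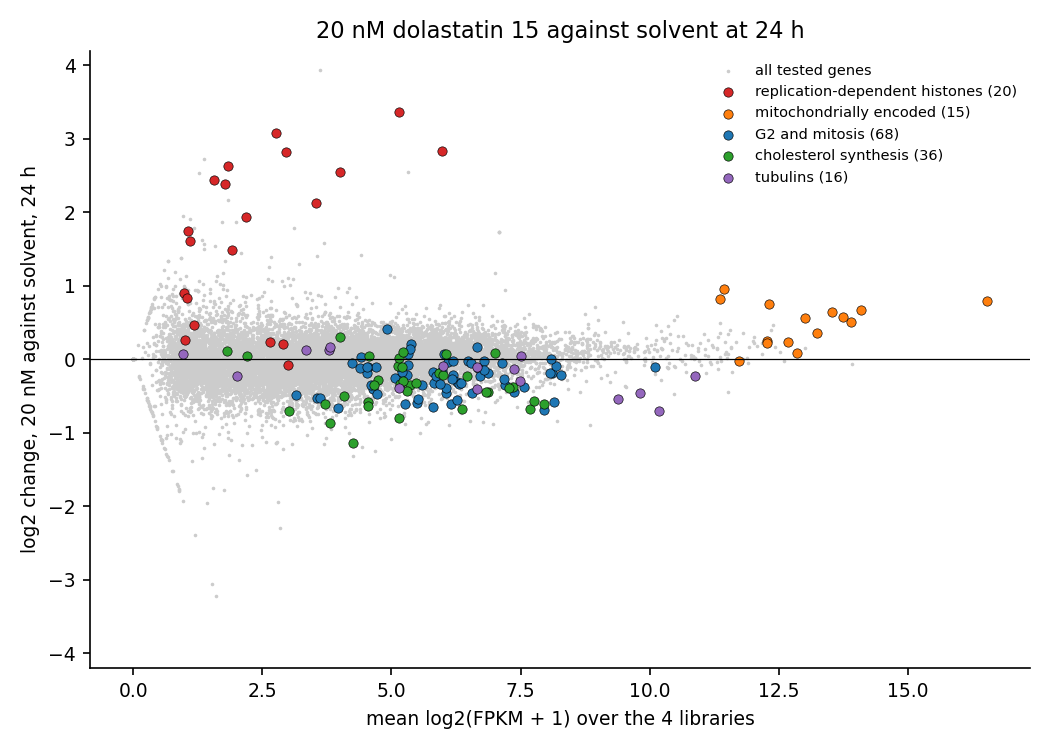
Log2 change with 20 nM dolastatin 15 against solvent at 24 h (vertical axis) by mean log2(FPKM + 1) over the 4 libraries (horizontal axis), 1 point per tested gene, with 5 gene lists coloured; 3 genes lie outside the axis. Most genes lie within 1 of the line at 0; the histone list reaches 3.37 above it, and the mitosis, tubulin and cholesterol lists lie mostly below it.

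Tubulin mRNAs were lower with 20 nM. Of 16 tested tubulin genes, 0 rose and 8 fell, with a median log2 change of -0.17. For tubulin genes the counts became 0 and 12 (median -0.34) with a common sum over all genes and 0 and 9 with one over nuclear genes. The alpha and beta tubulins that fell include the most abundant ones: TUBA1C had 878 and 932 FPKM in the 20 nM libraries, against 1474 and 1473 FPKM in the solvent libraries (log2 change -0.70, SE 0.04, limma adjusted p = 2.00e-05). TUBB had 753 and 788 FPKM in the 20 nM libraries, against 1043 and 1069.9 FPKM in the solvent libraries (log2 change -0.45, SE 0.04, limma adjusted p = 0.000140), and TUBB4B, another beta tubulin, had 591 and 523 FPKM in the 20 nM libraries, against 809 and 814 FPKM in the solvent libraries (log2 change -0.55, SE 0.05, limma adjusted p = 0.000213). In all 3 genes both treated libraries were below both solvent libraries, as in 31.1% of all tested genes. The most abundant alpha tubulin, TUBA1B, fell less, with 1702 and 1787 FPKM in the 20 nM libraries, against 2007 and 2066 FPKM in the solvent libraries (log2 change -0.22). TUBA1A, TUBB3 and TUBB4A also fell, by log2 changes of -0.40, -0.29 and -0.38. TUBB6 did not pass, at 185 and 183 FPKM in the 20 nM libraries, against 178 and 178 FPKM in the solvent libraries (a fall of -0.14 that passed with a common sum over all genes), and neither did TUBB2A, at 101 and 92.4 FPKM in the 20 nM libraries, against 105 and 102 FPKM in the solvent libraries. The tubulin feedback reads the coding start, and its part in these falls was not tested. The coding starts of TUBB6 and TUBB2A, which did not pass, are not shown. Those of 4 alpha and beta tubulins that fell and of gamma tubulin are shown. They are the first 24 bases of each coding sequence in GENCODE 29 transcripts on GRCh38, 5′ to 3′, with the first 4 codons in capitals. The span of each TUBA1 gene holds an intron.
TUBA1C, chr12:49265182-49269485, plus strand: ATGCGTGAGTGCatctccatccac
TUBA1B, chr12:49129702-49131300, minus strand: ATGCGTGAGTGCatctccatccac
TUBB, chr6:30720507-30720530, plus strand: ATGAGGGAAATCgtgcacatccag
TUBB4B, chr9:137241361-137241384, plus strand: ATGAGGGAAATCgtgcacttgcag
TUBG1, chr17:42609738-42609761, plus strand: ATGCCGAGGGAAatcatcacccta
TUBA1B and TUBA1C share all 24 bases, so short reads of such stretches cannot be assigned to 1 of them. TUBG1 encodes gamma tubulin, which nucleates microtubules and does not start with the same codons. It had 158 and 156 FPKM in the 20 nM libraries, against 168 and 175 FPKM in the solvent libraries. TUBG1 fell too, by a small log2 change of -0.13 (limma adjusted p = 0.0430). At 16 h, from other libraries, TUBB and TUBA1C had log2 changes of -1.04 and -0.98, larger falls than at 24 h, and the difference between times passed for TUBB (0.59, adjusted p = 0.000900) and TUBA1C (0.28, adjusted p = 0.0149). TUBG1 lost its call without library 7, 8, 11 or 12 (limma adjusted p = 0.0735, 0.112, 0.0687 and 0.210). TUBB2A gained a call without library 7 (limma adjusted p = 0.0317). TUBA1C lost the call of its difference between times without library 1 or 11 (limma adjusted p = 0.0617 and 0.0524). TUBB2A passed as lower with a common sum over all genes (adjusted p = 0.00235). TUBA1C lost the call of the difference with a common sum over all genes (adjusted p = 0.324). TUBB2A passed as lower with a common sum over nuclear genes (adjusted p = 0.0159). TUBA1C lost the call of the difference with a common sum over nuclear genes (adjusted p = 0.0726).

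Genes of tubulin folding and tubulin mRNA decay rose more often than they fell, but not with a common sum over all genes. Of 16 tested genes of tubulin folding and tubulin mRNA decay of 17 listed, 7 rose and 2 fell, with a median log2 change of 0.11. For genes of tubulin folding and tubulin mRNA decay the counts became 1 and 4 (median -0.07) with a common sum over all genes and 6 and 2 with one over nuclear genes. Among subunits of the chaperonin CCT, which folds actin and tubulin, 5 of 8 rose; CCT2 had 503 and 469.6 FPKM in the 20 nM libraries, against 402 and 398 FPKM in the solvent libraries (log2 change 0.28, SE 0.05, limma adjusted p = 0.00520). TBCB, a cofactor of alpha tubulin, had 199 and 193 FPKM in the 20 nM libraries, against 159 and 156 FPKM in the solvent libraries (log2 change 0.31, SE 0.04, limma adjusted p = 0.000629). TBCD, another folding cofactor, fell, with 59.9 and 57.9 FPKM in the 20 nM libraries, against 65.1 and 69.8 FPKM in the solvent libraries (log2 change -0.19). TTC5 had 20.6 and 18.0 FPKM in the 20 nM libraries, against 16.9 and 15.5 FPKM in the solvent libraries and did not pass. CNOT11, a subunit of the CCR4-NOT complex, fell, with 42.9 and 47.3 FPKM in the 20 nM libraries, against 53 and 53 FPKM in the solvent libraries. Of 18 tested microtubule-associated protein genes of 19 listed, 3 rose and 9 fell, with a median log2 change of -0.23. For microtubule-associated protein genes the counts became 0 and 13 (median -0.41) with a common sum over all genes and 3 and 11 with one over nuclear genes. Of 6 stabilisers, 5 fell. CKAP5, which promotes growth of plus ends, had 57.0 and 56.1 FPKM in the 20 nM libraries, against 80.2 and 76.9 FPKM in the solvent libraries (log2 change -0.47, SE 0.05, limma adjusted p = 0.000280), and STMN1, which sequesters tubulin dimers, had 413 and 376 FPKM in the 20 nM libraries, against 481 and 490.3 FPKM in the solvent libraries (log2 change -0.30). MAPRE1, the end-binding protein EB1, rose, with 119.6 and 118 FPKM in the 20 nM libraries, against 98.7 and 97.8 FPKM in the solvent libraries, as did the severing enzymes KATNA1 (0.34) and SPAST (0.34). The genes of tubulin folding and tubulin mRNA decay that rose and fell numbered 5 and 0 without library 12. The microtubule-associated protein genes that rose and fell numbered 3 and 5 without library 12. TBCD lost its call without library 7, 8 or 12 (limma adjusted p = 0.0528, 0.112 and 0.175). CNOT11 did so without library 7, 11 or 12 (0.0976, 0.0855 and 0.0788). MAPRE1, CCT2, KATNA1 and SPAST did not pass with a common sum over all genes (adjusted p = 0.0872, 0.171, 0.0587 and 0.0752).

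**Figure D2:**
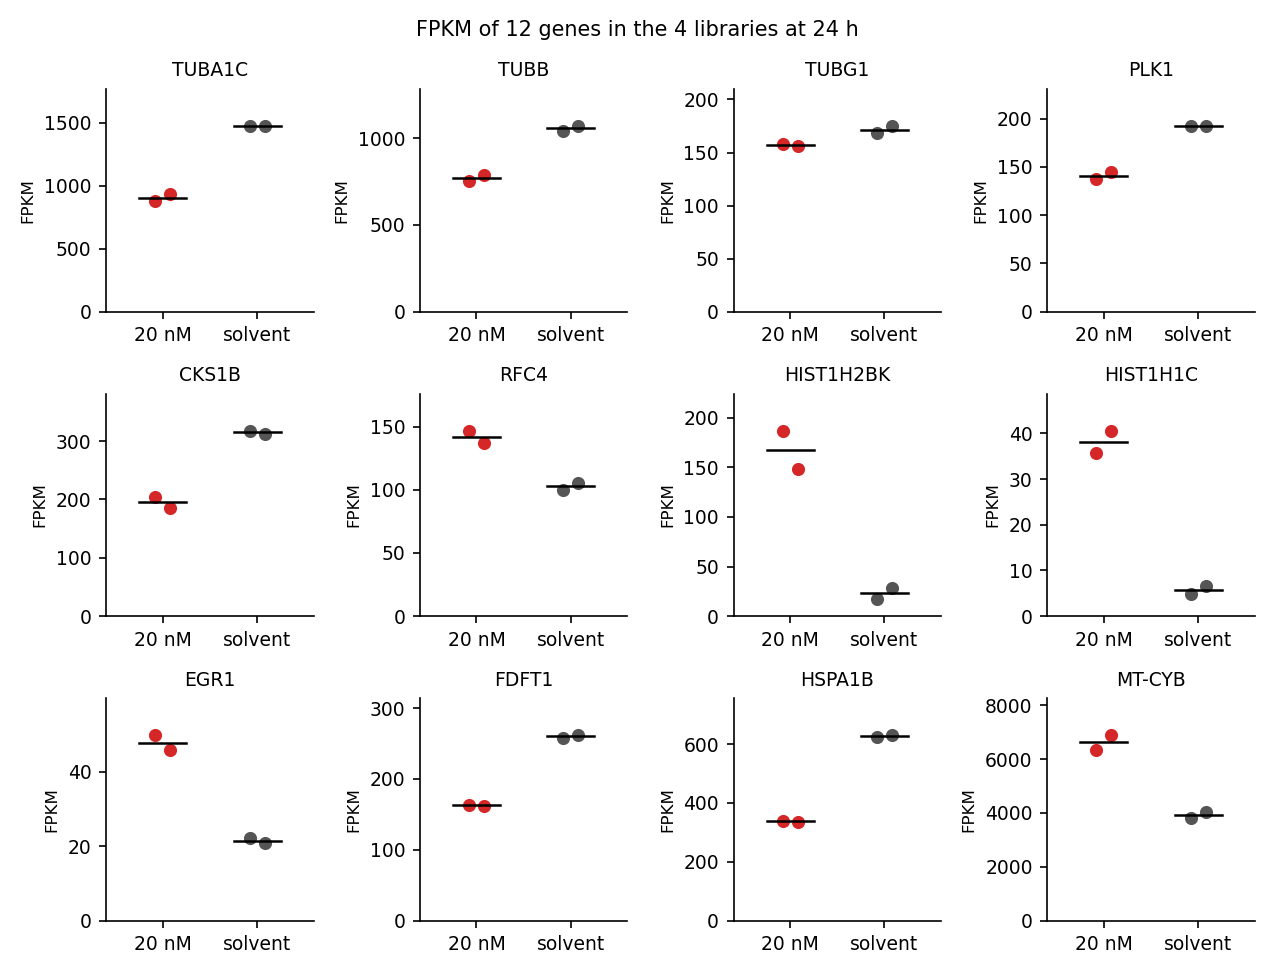
FPKM (vertical axis, from 0) of 12 genes in the 20 nM libraries (left, red) and the solvent libraries (right, grey) at 24 h; points are libraries and lines are means of 2. TUBA1C, TUBB, PLK1, CKS1B, FDFT1 and HSPA1B are lower and RFC4, HIST1H2BK, HIST1H1C, EGR1 and MT-CYB higher with 20 nM, and in TUBG1 the difference is small.

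Genes of G2 and mitosis were lower at 24 h. Most of them are transcribed late in the cell cycle, and their mRNAs peak in cells in G2 and mitosis. Of 68 tested genes of the G2 and mitosis list, 2 rose and 40 fell, with a median log2 change of -0.22. For genes of the G2 and mitosis list the counts became 1 and 61 (median -0.40) with a common sum over all genes and 1 and 48 with one over nuclear genes. The fall reached every role on the list: 7 of 13 genes of the mitotic entry switch, 7 of 10 kinases and chromosomal passenger genes, 2 of 6 checkpoint genes, 3 of 8 genes of the anaphase-promoting complex, 8 of 11 kinesins, 9 of 13 chromosome genes and 4 of 7 cytokinesis genes. UBE2C, the ubiquitin-conjugating enzyme of the anaphase-promoting complex, had 229 and 234 FPKM in the 20 nM libraries, against 334 and 359 FPKM in the solvent libraries (log2 change -0.58, SE 0.04, limma adjusted p = 5.13e-05). CKS1B, a subunit of cyclin-dependent kinases, had 205 and 185 FPKM in the 20 nM libraries, against 318 and 312 FPKM in the solvent libraries (log2 change -0.69, SE 0.06, limma adjusted p = 0.000112), and PLK1, a kinase of mitotic entry and spindle assembly, had 137 and 144 FPKM in the 20 nM libraries, against 192 and 192 FPKM in the solvent libraries (log2 change -0.45, SE 0.04, limma adjusted p = 0.000104). The passenger INCENP (-0.59), its kinase AURKB (-0.61), the spindle protein ASPM (-0.66), the kinetochore protein CENPF (-0.65) and the checkpoint kinase BUB1B (-0.55) fell as well. In the genes just named, both 20 nM libraries were below both solvent libraries, as in 31.1% of all tested genes. The cyclins fell less: CCNB1 had 259 and 254 FPKM in the 20 nM libraries, against 289.9 and 292 FPKM in the solvent libraries (log2 change -0.18), CCNB2 -0.12 and CCNA2 -0.22. CDC20 had 302 and 264 FPKM in the 20 nM libraries, against 308 and 293 FPKM in the solvent libraries and FOXM1, the transcription factor of many of these genes, had 107 and 113 FPKM in the 20 nM libraries, against 112 and 110.2 FPKM in the solvent libraries, and neither passed. The 2 members that rose were CDC25A, a phosphatase that also acts at the start of S phase (35.4 and 32.5 against 26.6 and 24.0 FPKM, log2 change 0.41), and MYBL2, a transcription factor made from late G1 on (107 and 107 against 94.6 and 94.5 FPKM, log2 change 0.17 and -0.01, not passed, with a common sum over all genes). CCNB1 lost its call without library 11 or 12 (limma adjusted p = 0.05 and 0.0571). CCNB2 did so without library 7, 11 or 12 (0.0654, 0.0717 and 0.121). MYBL2 did so without library 11 (0.0520). CDC20 gained a call without library 7 (limma adjusted p = 0.0450). FOXM1 and CDC20 passed as lower with a common sum over all genes (adjusted p = 0.00338 and 0.0152). MYBL2 did not pass with a common sum over nuclear genes (adjusted p = 0.0555).

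At 16 h the same list did not move one way. In those libraries 912 genes (6.78%) were higher and 1476 (11%) lower with 20 nM, and of the 68 mitosis genes 23 rose and 20 fell, with a median of 0.10. The effect at 24 h was lower than that at 16 h in 32 of the 68 genes and higher in 8 by the test of the difference, which passed in 4.46% of all genes as a negative and in 7.06% as a positive difference. PLK1 had 229 and 226 FPKM with 20 nM at 16 h, against 167 and 165 FPKM with solvent at 16 h, so its log2 change was -0.45 at 24 h and 0.45 at 16 h (difference -0.90, adjusted p = 0.000116). AURKA (-0.23 at 24 h and 0.62 at 16 h), CCNB1 (-0.18 and 0.60) and KIF20A (-0.18 and 0.66) changed sign in the same way, with differences of -0.85, -0.78 and -0.84. Another group was less far down at 24 h than at 16 h. CDK1, the kinase that drives entry into mitosis, had a log2 change of -0.32 at 24 h and -1.13 at 16 h (difference 0.81, adjusted p = 0.000998), TOP2A, the topoisomerase that untangles sister chromatids, -0.36 and -1.01, and FBXO5, which restrains the anaphase-promoting complex, 0.14 and -1.05, which did not pass at 24 h. AURKB, CKS1B and INCENP had close to the same change at both times, with differences of -0.03, 0.00 and -0.03 that did not pass. CCNB1 lost its call without library 11 or 12 (limma adjusted p = 0.05 and 0.0571). KIF20A did so without library 7 or 12 (0.0740 and 0.107). FBXO5 gained a call without library 12 (limma adjusted p = 0.0270).

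Many promoters of mitotic genes hold the CHR element (cell cycle genes homology region), bound by the DREAM and MMB complexes, with CCAAT boxes upstream, bound by NF-Y. RefSeq promoters on GRCh38.p14, windows of 300 bases that lie mostly upstream of the start of transcription, were found for 58 of the 68 mitosis genes. TTTGAA or TTCGAA on either strand stood in 70.7% of them, CCAAT on either strand in 74.1%, and both in 56.9%. Among all 27305 promoters of the table the shares were 16.6%, 35.7% and 6.58%, and among 9939 promoters of tested genes 10.6%, 37.0% and 4.64%. Both motifs were in 62.2% of 37 promoters of members that fell and in 47.6% of 21 promoters of the others. Outside the list, 428 tested genes had both motifs, of which 17.8% rose and 15.2% fell, and of 5658 genes with neither 14.9% rose and 15.4% fell. The promoters below belong to the 3 members with both motifs and the smallest p among those that fell. Members on 1 chromosome were left out before this choice. Each runs 20 bases beyond its outermost motifs unless the promoter ends first, 5′ to 3′ on the gene's strand, with TTTGAA and CCAAT or its reverse complement ATTGG in capitals.
INCENP, chr11:62123884-62124026, plus strand: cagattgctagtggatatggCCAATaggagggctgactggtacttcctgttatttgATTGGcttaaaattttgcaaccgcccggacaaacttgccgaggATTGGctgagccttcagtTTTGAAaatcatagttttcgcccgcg
PLK1, chr16:23678796-23678885, plus strand: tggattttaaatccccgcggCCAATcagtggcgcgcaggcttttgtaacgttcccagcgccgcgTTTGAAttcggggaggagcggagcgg
CKS1B, chr1:154974431-154974676, plus strand: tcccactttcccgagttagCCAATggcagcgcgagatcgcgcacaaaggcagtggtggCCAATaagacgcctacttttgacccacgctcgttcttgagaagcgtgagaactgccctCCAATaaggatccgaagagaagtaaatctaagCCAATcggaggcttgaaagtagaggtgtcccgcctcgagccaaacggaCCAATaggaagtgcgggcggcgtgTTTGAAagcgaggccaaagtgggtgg
The INCENP stretch holds 1 CHR and 3 CCAAT motifs, that of PLK1 1 and 1, and that of CKS1B 1 and 5. A match of letters is a description and shows no binding.

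Genes of DNA replication leaned higher at 24 h, where they had been lower at 16 h, although with a common sum over all genes more of them fell than rose at 24 h. Of 42 tested DNA replication genes, 16 rose and 2 fell, with a median log2 change of 0.09. For DNA replication genes the counts became 8 and 15 (median -0.09) with a common sum over all genes and 11 and 5 with one over nuclear genes. Licensing factors, which load the helicase onto origins, held 8 of the 16, and genes of the replication fork the other 8. ORC6, a subunit of the origin recognition complex, had 65.0 and 65.0 FPKM in the 20 nM libraries, against 47.4 and 50.2 FPKM in the solvent libraries (log2 change 0.41, SE 0.04, limma adjusted p = 0.000230). CDC6, which loads the helicase, had 176 and 164 FPKM in the 20 nM libraries, against 130.4 and 118 FPKM in the solvent libraries (log2 change 0.45, SE 0.06, limma adjusted p = 0.00147), and RFC4, of the clamp loader, had 147 and 137 FPKM in the 20 nM libraries, against 100.2 and 106 FPKM in the solvent libraries (log2 change 0.46, SE 0.05, limma adjusted p = 0.000341). PCNA, the sliding clamp, rose by less, with 404 and 372 FPKM in the 20 nM libraries, against 324 and 332 FPKM in the solvent libraries (log2 change 0.24). In these 4 genes both 20 nM libraries were above both solvent libraries, as in 31.5% of all tested genes. The 2 members that fell were POLA2, a subunit of the primase complex (-0.35), and CHAF1B, of the chromatin assembly factor (-0.16). At 16 h none of the 42 rose and 24 fell, with a median of -0.19. The difference between times was positive and passed in 27 of the 42 and negative in none. These 2 counts are on the deposited scale alone. Over all genes, 950 positive and 600 negative differences became 346 and 2116 with a common sum over all genes. CDC6 had 84.7 and 90.7 FPKM with 20 nM at 16 h, against 130.5 and 120.3 FPKM with solvent at 16 h, and its log2 changes of 0.45 at 24 h and -0.51 at 16 h differed by 0.96 (limma adjusted p = 0.000998). RFC4 (0.46 and -0.35, difference 0.81), PCNA (0.24 and -0.42, difference 0.66) and MCM5, a helicase subunit (0.20 and -0.39, difference 0.59), moved alike. POLA2 lost its call without library 8 or 12 (limma adjusted p = 0.0993 and 0.128). CHAF1B did so without library 7, 8, 11 or 12 (0.0967, 0.0671, 0.124 and 0.116). MCM5 did so without library 8, 11 or 12 (0.0654, 0.110 and 0.0558). MCM5 and PCNA did not pass with a common sum over all genes (adjusted p = 0.904 and 0.364). MCM5 did not pass with a common sum over nuclear genes (adjusted p = 0.128).

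Genes of homologous recombination and of G1/S control changed in smaller numbers at 24 h, after falls at 16 h. Of 23 tested genes of homologous recombination and the Fanconi pathway of 24 listed, 6 rose and 2 fell, with a median log2 change of 0.01. For genes of homologous recombination and the Fanconi pathway the counts became 3 and 5 (median -0.16) with a common sum over all genes and 4 and 2 with one over nuclear genes. EXO1, a nuclease that resects broken ends, had 39.2 and 37.7 FPKM in the 20 nM libraries, against 29.6 and 27.7 FPKM in the solvent libraries (log2 change 0.41, SE 0.06, limma adjusted p = 0.00175), and RBBP8, which starts resection, had 59.2 and 64.2 FPKM in the 20 nM libraries, against 45.7 and 46.4 FPKM in the solvent libraries (log2 change 0.41). PALB2, a scaffold of recombination, rose by 0.47 on the log2 scale. FANCD2, the central protein of the Fanconi pathway, fell, with 16.0 and 16.6 FPKM in the 20 nM libraries, against 22.2 and 22.2 FPKM in the solvent libraries. At 16 h none of the 23 rose and 10 fell, with a median of -0.29, and 11 differences between times were positive and none negative. Of 26 tested genes of G1/S control and deoxynucleotide supply of 27 listed, 3 rose and 2 fell, with a median log2 change of -0.01. For genes of G1/S control and deoxynucleotide supply the counts became 0 and 11 (median -0.19) with a common sum over all genes and 2 and 3 with one over nuclear genes. At 16 h none of them rose and 12 fell. E2F2 and E2F8, of the E2F transcription factors, rose by 0.30 and 0.27 at 24 h and had log2 changes of -0.34 and -0.45 at 16 h, with differences of 0.64 and 0.72 that passed. CCNE2 (38.3 and 36.4 against 39.2 and 32.8 FPKM) and RRM2, a subunit of ribonucleotide reductase (325 and 299 against 302 and 277 FPKM), did not pass. The genes of homologous recombination and the Fanconi pathway that rose and fell numbered 3 and 2 without library 11. The genes of G1/S control and deoxynucleotide supply that rose and fell numbered 1 and 1 without library 11 and 2 and 0 without library 12. E2F2 lost its call without library 11 (limma adjusted p = 0.0710). E2F8 did so without library 7, 11 or 12 (0.126, 0.125 and 0.0865). E2F2 and E2F8 did not pass with a common sum over all genes (adjusted p = 0.171 and 0.383). E2F8 did not pass with a common sum over nuclear genes (adjusted p = 0.0809).

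**Figure D3:**
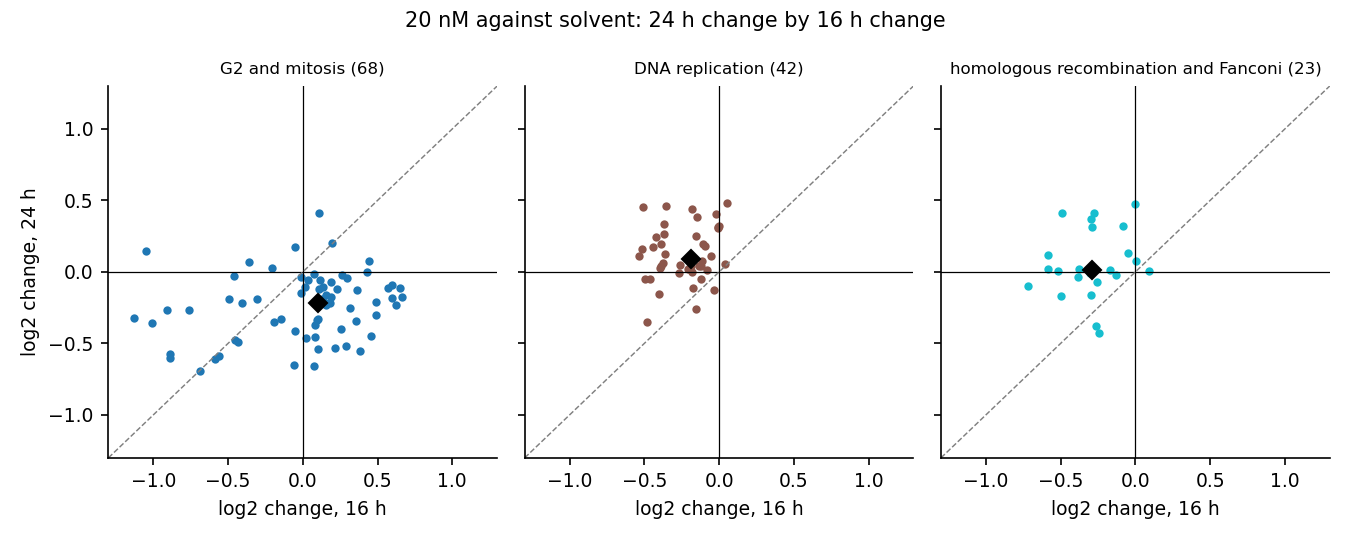
Log2 change with 20 nM against solvent at 24 h (vertical axis) by that at 16 h (horizontal axis), from separate libraries, for 68 genes of G2 and mitosis, 42 of DNA replication and 23 of homologous recombination and the Fanconi pathway. Points are genes, the black diamond is the list's median on both axes and the dashed line marks equal change; the median of the mitosis list is at -0.22 for 24 h and 0.10 for 16 h, and that of replication at 0.09 for 24 h (-0.09 with a common sum over all genes) and -0.19 for 16 h.

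Replication-dependent histone genes were higher, and histone genes fill most of the 15 largest increases among protein-coding genes. Of 20 tested histone genes of 36 listed, 15 rose and 0 fell, with a median log2 change of 1.84. HIST2H2BE, HIST1H2BJ and HIST1H2BN were under 1 FPKM in every solvent library at both times, so they were tested only through treated libraries. This favours rises in the counts and the median of the list. For histone genes the counts became 15 and 0 (median 1.75) with a common sum over all genes and 15 and 0 with one over nuclear genes. These genes encode the bulk histones made in S phase. Their mRNAs end in a stem-loop and mostly lack a poly(A) tail, so poly(A) selection reads mainly the polyadenylated share of them, and a change in total mRNA and a change in that share cannot be told apart here. The rises covered both tested H1 genes, 5 of 6 H2A genes, 6 of 6 H2B genes and 2 of 4 H4 genes, and neither tested H3 gene. HIST2H2AA4 (ENSG00000272196, chr1:149851061-149851624) had 111 and 117 FPKM in the 20 nM libraries, against 9.35 and 10.8 FPKM in the solvent libraries (log2 change 3.37, SE 0.10, limma adjusted p = 1.29e-06). It has a near-identical copy, HIST2H2AA3, so the split of reads between them is uncertain. HIST1H2BK had 187 and 148 FPKM in the 20 nM libraries, against 17.7 and 28.5 FPKM in the solvent libraries (log2 change 2.84, SE 0.19, limma adjusted p = 4.45e-05), and the linker histone HIST1H1C had 35.6 and 40.6 FPKM in the 20 nM libraries, against 4.88 and 6.54 FPKM in the solvent libraries (log2 change 2.55, SE 0.17, limma adjusted p = 4.59e-05). In these 3 genes both 20 nM libraries were above both solvent libraries, as in 31.5% of all tested genes. This was a condition for naming the largest increases. HIST1H2BC (21.2 and 16.8 against 1.55 and 1.16 FPKM, log2 change 3.08), HIST1H2AC (19 and 20.3 against 1.61 and 2.29 FPKM, 2.82), HIST2H2BE (7.63 and 8.14 against 0.430 and 0.430 FPKM, 2.63), HIST1H4H (4.48 and 7.81 against 0.130 and 0.440 FPKM, 2.45), HIST1H2BJ (6.92 and 6.82 against 0.680 and 0.360 FPKM, 2.38) and HIST1H2BD (23.0 and 23.5 against 4.17 and 4.95 FPKM, 2.13) rose the same way. HIST1H4C (6.70 and 7.33 against 4.86 and 7.13 FPKM), HIST1H4J (5.65 and 8.0 against 10.8 and 4.70 FPKM), HIST2H2AC (4.12 and 8.11 against 5.90 and 3.90 FPKM) and HIST1H3B (1.46 and 1.87 against 0.510 and 1.45 FPKM) had libraries that overlapped between the groups or lay close, and did not pass. The largest increases over all protein-coding genes also hold HIST2H4A (1.94), HIST1H2BO (2.17), HIST1H2AM (1.48) and HIST3H2A (22.3 and 20.7 against 7.11 and 6.01 FPKM, 1.58). HIST2H4A has a near-identical copy, HIST2H4B, so its reads are uncertain too. HIST1H2AM lost its call without library 8, 11 or 12 (limma adjusted p = 0.0648, 0.0552 and 0.0945). HIST1H3B gained a call without library 12 (limma adjusted p = 0.0288).

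At 16 h 10 of the 20 histone genes rose and 1 fell, with a median of 0.62, and 9 of the 20 differences between times were positive and none negative. HIST1H1C had 9.62 and 11.5 FPKM with 20 nM at 16 h, against 3.78 and 5.80 FPKM with solvent at 16 h, so its log2 change was 2.55 at 24 h and 1.01 at 16 h (difference 1.54, adjusted p = 0.00583). With 100 nM at 24 h, HIST1H1C had 33.7 and 33.4 FPKM and HIST1H2BK 225 and 216 FPKM, and none of the 20 histone genes passed between the doses, where 4.88% of all genes did. Promoters were found for 32 of 36 listed histone genes. The octamer ATTTGCAT on either strand, the letters bound by OCT1, stood in 46.9% of them, against 1.8% of all 27305 promoters and 1.3% of those of tested genes. It was in 6 of the 7 H2A promoters, 8 of the 10 H2B promoters and 1 of the 5 H3 promoters. None of the 5 H4 and 5 H1 promoters held it. These counts cover listed genes whether or not they were tested. The part of the octamer in the rises was not tested. Shown are the 2 H2B promoters with the octamer and the smallest p, 20 bases to each side, 5′ to 3′, with the octamer in capitals.
HIST2H2BE, chr1:149886701-149886748, minus strand: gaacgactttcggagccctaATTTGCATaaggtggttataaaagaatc
HIST1H2BC, chr6:26124022-26124069, minus strand: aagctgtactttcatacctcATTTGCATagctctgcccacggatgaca

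Immediate early genes, which are switched on within minutes by growth factor and stress signalling, were mostly higher at 24 h. Of 24 tested AP-1 and immediate early genes, 16 rose and 3 fell, with a median log2 change of 0.52. For AP-1 and immediate early genes the counts became 12 and 3 (median 0.34) with a common sum over all genes and 15 and 3 with one over nuclear genes. EGR3, a member that rose, was under 1 FPKM in every solvent library at both times, so it was tested only through treated libraries. This favours rises in the counts. JUN, a subunit of the transcription factor AP-1, had 21.1 and 20.9 FPKM in the 20 nM libraries, against 10.7 and 9.77 FPKM in the solvent libraries (log2 change 0.97, SE 0.06, limma adjusted p = 2.63e-05). EGR1, a zinc finger factor, had 49.8 and 45.8 FPKM in the 20 nM libraries, against 22.1 and 20.8 FPKM in the solvent libraries (log2 change 1.12, SE 0.08, limma adjusted p = 5.92e-05), and FOSB, another AP-1 subunit, had 10.4 and 8.44 FPKM in the 20 nM libraries, against 2.98 and 2.91 FPKM in the solvent libraries (log2 change 1.40, SE 0.14, limma adjusted p = 0.000262). In all 3 both treated libraries were above both solvent libraries, as in 31.5% of all tested genes. FOSL1 (259 and 238 against 162 and 162 FPKM, log2 change 0.61), JUNB (56.0 and 51.8 against 34.0 and 35.4 FPKM, 0.62), ATF3 (18.7 and 19.4 against 10.9 and 9.41 FPKM, 0.85), NR4A2 (11.2 and 9.43 against 5.19 and 5.48 FPKM, 0.83) and IER3 (268 and 242 against 184 and 189 FPKM, 0.45) rose too. FOS had 14.8 and 10.4 FPKM in the 20 nM libraries, against 9.13 and 6.35 FPKM in the solvent libraries (limma adjusted p = 0.0539) and did not pass. The 3 members that fell were KLF2 (-0.61), BTG2 (-0.52) and IER5 (-0.35). At 16 h 9 of the 24 rose and 5 fell. JUN and EGR1 had log2 changes of 0.90 and 0.83 there, and the differences between times, 0.07 and 0.29, did not pass. IER5 lost its call without library 8 or 11 (limma adjusted p = 0.114 and 0.148). FOS gained a call without library 8 or 11 (limma adjusted p = 0.0336 and 0.0462).

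Genes of ERK output and of NF-kB rose more often than they fell, but not with a common sum over all genes. Of all tested genes, 14.7% rose and 14.1% fell. Of 22 tested genes of ERK output of 24 listed, 8 rose and 2 fell, with a median log2 change of 0.10. For genes of ERK output the counts became 4 and 6 (median -0.08) with a common sum over all genes and 6 and 3 with one over nuclear genes. The epidermal growth factor receptor ligands AREG (33.9 and 30.4 against 21.7 and 23.0 FPKM, log2 change 0.50) and EREG (14.7 and 14.6 against 10.8 and 11 FPKM, 0.39) rose, as did DUSP5, a phosphatase of nuclear ERK (0.32), and SPRY2, a feedback inhibitor (0.47). The factor ETV4 (-0.27) and SPRY4 (-0.21) fell. Of 12 tested NF-kB target genes of 20 listed, 4 rose and 1 fell, with a median log2 change of 0.05. For NF-kB target genes the counts became 2 and 3 (median -0.10) with a common sum over all genes and 3 and 2 with one over nuclear genes. TNFAIP3, which encodes the feedback inhibitor A20, had 6.76 and 7.23 FPKM in the 20 nM libraries, against 3.98 and 3.86 FPKM in the solvent libraries (log2 change 0.70, SE 0.09, limma adjusted p = 0.000779). CXCL8, a chemokine, had 1.39 and 1.81 FPKM in the 20 nM libraries, against 0.430 and 0.470 FPKM in the solvent libraries (log2 change 0.84), and TNFAIP2 fell (-0.55). CXCL8 was under 1 FPKM in every solvent library at both times, so it was tested only through treated libraries. This favours rises in the counts of the NF-kB list. Of 27 tested interferon-stimulated genes of 35 listed, 8 rose and 5 fell, with a median log2 change of 0.02. For interferon-stimulated genes the counts became 5 and 6 (median -0.11) with a common sum over all genes and 6 and 6 with one over nuclear genes. The rises were of the IFIT genes, whose proteins bind viral RNA, and a few others. IFIT2 had 3.01 and 3.41 FPKM in the 20 nM libraries, against 0.240 and 0.20 FPKM in the solvent libraries (log2 change 1.79, SE 0.10, limma adjusted p = 2.63e-05), IFIT1 had 8.55 and 8.03 FPKM in the 20 nM libraries, against 3.52 and 3.32 FPKM in the solvent libraries (log2 change 1.07, SE 0.08, limma adjusted p = 5.31e-05), and IFIT3 (2.95 and 2.75 against 1.21 and 1.33 FPKM, 0.76) and OASL (1.81 and 1.81 against 0.60 and 0.280 FPKM, 0.97) rose at low levels. IFITM2 (56.1 and 70.7 against 87.9 and 99.3 FPKM, -0.56) and TMEM173, which encodes STING (11.1 and 10.5 against 13.6 and 14.0 FPKM, -0.33), fell. At 16 h 2 of the 27 rose and 4 fell, and the difference between times passed for IFIT1 (0.50) and IFIT2 (1.03). The genes of ERK output that rose and fell numbered 5 and 1 without library 11 and 5 and 1 without library 12. The NF-kB target genes that rose and fell numbered 4 and 3 without library 7. The interferon-stimulated genes that rose and fell numbered 5 and 4 without library 7, 4 and 2 without library 11 and 6 and 2 without library 12. SPRY4 lost its call without library 7, 11 or 12 (limma adjusted p = 0.160, 0.196 and 0.0615). IFITM2 did so without library 12 (0.0547). TMEM173 did so without library 8, 11 or 12 (0.0889, 0.0771 and 0.0972). IFIT1 lost the call of its difference between times without library 2, 5 or 12 (limma adjusted p = 0.0728, 0.0681 and 0.0651). DUSP5 did not pass with a common sum over all genes (adjusted p = 0.114). IFIT1 lost the call of the difference with a common sum over all genes (adjusted p = 0.0630).

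Genes of cholesterol and fatty acid synthesis fell as a group. Most are targets of the SREBP transcription factors, which are activated when membrane sterol is low. Of 36 tested cholesterol and fatty acid synthesis genes of 37 listed, 0 rose and 26 fell, with a median log2 change of -0.35. For cholesterol and fatty acid synthesis genes the counts became 0 and 28 (median -0.53) with a common sum over all genes and 0 and 28 with one over nuclear genes. FDFT1, squalene synthase, had 164 and 162 FPKM in the 20 nM libraries, against 258 and 262 FPKM in the solvent libraries (log2 change -0.67, SE 0.04, limma adjusted p = 2.00e-05). INSIG1, which holds SREBP in the endoplasmic reticulum, had 25.1 and 26.7 FPKM in the 20 nM libraries, against 44.3 and 47.4 FPKM in the solvent libraries (log2 change -0.80, SE 0.08, limma adjusted p = 0.000259). The 20 nM libraries were below both solvent libraries for these genes, as in 31.1% of all tested genes. STARD4, a sterol carrier (9.04 and 9.83 against 18.8 and 17.4 FPKM, log2 change -0.87), LSS, lanosterol synthase (19.3 and 16.9 against 28.7 and 26.5 FPKM, -0.58), FASN, fatty acid synthase (196 and 202 against 284 and 324 FPKM, -0.61), SCD, stearoyl-CoA desaturase (176 and 180.5 against 266 and 263 FPKM, -0.57), and FADS1 (16.4 and 19.1 against 28.6 and 27.9 FPKM, -0.64) fell too. The genes of the factors themselves fell, SREBF1 by 0.43 and SREBF2 by 0.32 on the log2 scale. HMGCS1, an early enzyme of the pathway, did not pass (66.7 and 68.6 against 64.9 and 63.1 FPKM). At 16 h 1 of the 36 rose and 18 fell, with a median of -0.21, and 7 differences between times were negative and none positive. FDFT1 had log2 changes of -0.67 at 24 h and -0.45 at 16 h, and STARD4 of -0.87 and -0.94.

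Heat shock genes were lower, most of all the inducible HSP70 genes. Of 18 tested heat shock genes, 2 rose and 8 fell, with a median log2 change of -0.11. For heat shock genes the counts became 0 and 13 (median -0.30) with a common sum over all genes and 2 and 9 with one over nuclear genes. HSPA1B had 338 and 336 FPKM in the 20 nM libraries, against 623 and 630.3 FPKM in the solvent libraries (log2 change -0.89, SE 0.03, limma adjusted p = 2.25e-06). HSPA1A had 3.69 and 3.62 FPKM in the 20 nM libraries, against 9.36 and 8.88 FPKM in the solvent libraries (log2 change -1.12, SE 0.13, limma adjusted p = 0.000565), but the 2 genes are near-identical copies, so the division of reads between them is uncertain. Their partners DNAJB1, an HSP40 (177 and 174 against 256 and 255 FPKM, log2 change -0.54), and BAG3 (85.6 and 83.3 against 121 and 123 FPKM, -0.52), and the constitutive HSPA8 (1158 and 1255 against 1649 and 1689 FPKM, -0.47), fell as well. The 2 that rose were HSPD1, the mitochondrial chaperonin (1290.3 and 1451 against 1112 and 1142 FPKM, 0.28), and the factor HSF2 (22.6 and 22.9 against 15.4 and 18.4 FPKM, 0.41). The difference between times was negative in 8 of the 18 and positive in none, and BAG3 had log2 changes of -0.52 at 24 h and 0.39 at 16 h (difference -0.91, adjusted p = 0.000116). Of 23 tested genes of endoplasmic reticulum chaperones, 2 rose and 6 fell, with a median log2 change of -0.09. For genes of endoplasmic reticulum chaperones the counts became 0 and 14 (median -0.24) with a common sum over all genes and 0 and 8 with one over nuclear genes. HSPA5, the main HSP70 of that compartment, had 205 and 199.8 FPKM in the 20 nM libraries, against 255 and 270.0 FPKM in the solvent libraries (log2 change -0.37), and PDIA4, a disulphide isomerase, had 118 and 116 FPKM in the 20 nM libraries, against 154 and 156 FPKM in the solvent libraries (-0.41). DNAJB11 rose by 0.14, which became -0.04 with a common sum over all genes. The genes of endoplasmic reticulum chaperones that rose and fell numbered 0 and 5 without library 12. HSF2 lost its call without library 7, 8 or 11 (limma adjusted p = 0.0687, 0.0772 and 0.154). DNAJB11 did so without library 7 or 12 (0.104 and 0.146). HSPD1 and HSF2 did not pass with a common sum over all genes (adjusted p = 0.186 and 0.119). DNAJB11 did not pass with a common sum over nuclear genes (adjusted p = 0.148).

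Genes of the cell surface, the matrix and the junctions moved in both directions, and several of the largest decreases are among them. Of 32 tested matrix and adhesion genes of 39 listed, 9 rose and 12 fell, with a median log2 change of -0.19. For matrix and adhesion genes the counts became 6 and 17 (median -0.36) with a common sum over all genes and 9 and 13 with one over nuclear genes. SDC1, a heparan sulphate proteoglycan of epithelia, had 7.66 and 7.70 FPKM in the 20 nM libraries, against 18.6 and 17.9 FPKM in the solvent libraries (log2 change -1.15, SE 0.06, limma adjusted p = 1.31e-05). MMP14, a membrane-bound matrix protease, had 6.72 and 7.28 FPKM in the 20 nM libraries, against 14.2 and 14.3 FPKM in the solvent libraries (log2 change -0.93, SE 0.09, limma adjusted p = 0.000262), and CRTAP, a collagen modifier of the endoplasmic reticulum, had 36.7 and 39.7 FPKM in the 20 nM libraries, against 67.5 and 71.6 FPKM in the solvent libraries (log2 change -0.85, SE 0.05, limma adjusted p = 2.84e-05). LOXL2, a collagen cross-linking oxidase (-0.77), ITGB4, an integrin of hemidesmosomes (-0.73), TIMP2 (-0.67) and COL18A1 (-0.65) fell too. The members that rose include MMP1, a collagenase (1.18 and 1.00 against 0.210 and 0.140 FPKM, log2 change 0.83) and the glycoprotein TNC (2.73 and 3.89 against 1.6 and 1.39 FPKM, 0.78). Of 20 tested keratin and junction genes of 23 listed, 2 rose and 9 fell, with a median log2 change of -0.17. For keratin and junction genes the counts became 1 and 15 (median -0.35) with a common sum over all genes and 2 and 10 with one over nuclear genes. CLDN4, a tight junction protein, had 20.8 and 18.8 FPKM in the 20 nM libraries, against 34.9 and 35.8 FPKM in the solvent libraries (log2 change -0.81, SE 0.06, limma adjusted p = 5.13e-05). DSP (-0.39) and JUP (-0.44), of desmosomes, and KRT80 (-0.54) fell. The 2 that rose were EPCAM (0.37) and KRT19 (0.31), and KRT8 did not pass (0.02, and -0.17, passed, with a common sum over all genes). The keratin and junction genes that rose and fell numbered 2 and 5 without library 12. KRT19 did not pass with a common sum over all genes (adjusted p = 0.125).

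**Figure D4:**
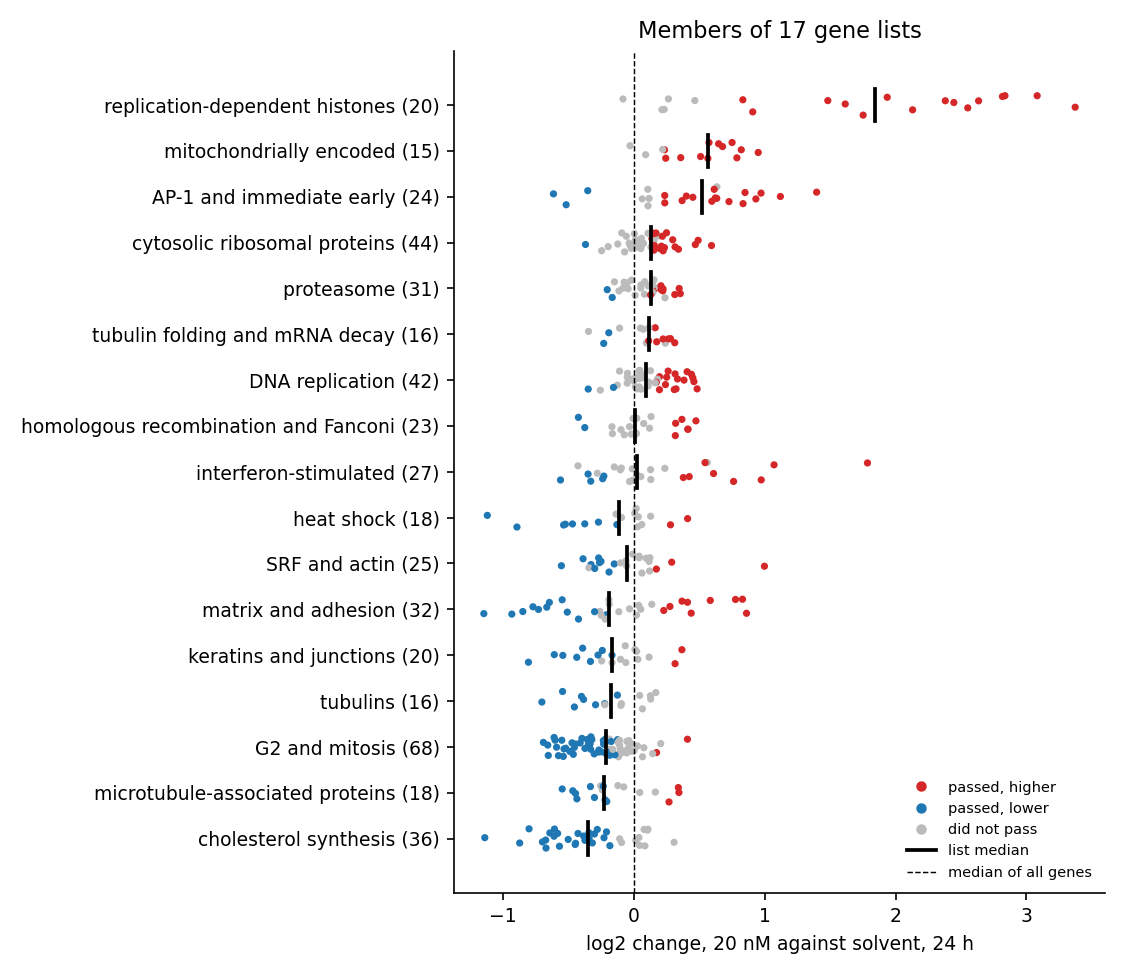
Log2 change with 20 nM against solvent at 24 h (horizontal axis) of each tested member of 17 gene lists (rows, number tested in brackets); red members rose, blue members fell, grey ones did not pass, the black bar is the list's median and the dashed line the median of all tested genes. The histone list has its median at 1.84 and no blue point, and the cholesterol list has its median at -0.35 and no red point.

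Targets of the actin-linked factors SRF and YAP leaned lower. Of 25 tested genes of SRF and actin of 28 listed, 3 rose and 9 fell, with a median log2 change of -0.05. For genes of SRF and actin the counts became 1 and 16 (median -0.24) with a common sum over all genes and 2 and 9 with one over nuclear genes. The focal adhesion genes ACTN1 (54.9 and 56.0 against 72.3 and 73.4 FPKM, log2 change -0.39) and VCL (28.2 and 34.7 against 44.3 and 48.6 FPKM, -0.55) fell, and so did CNN2 (-0.33). TAGLN, an actin-binding protein of smooth muscle, rose, with 9.60 and 9.83 FPKM in the 20 nM libraries, against 4.43 and 4.30 FPKM in the solvent libraries (log2 change 1.00, SE 0.11, limma adjusted p = 0.000367), and TPM4, a tropomyosin, rose by 0.29. Of 19 tested YAP and TEAD target genes of 24 listed, 2 rose and 8 fell, with a median log2 change of -0.16. For YAP and TEAD target genes the counts became 0 and 11 (median -0.34) with a common sum over all genes and 1 and 9 with one over nuclear genes. AXL, a receptor kinase (21.6 and 20.1 against 28.3 and 27.6 FPKM, -0.41), and AJUBA (7.26 and 6.57 against 9.88 and 9.45 FPKM, -0.43) fell. CYR61 fell little (61.0 and 55.8 against 66.3 and 66.8 FPKM, -0.19), NT5E rose (0.34), and CTGF did not pass at 24 h (5.51 and 5.31 against 5.02 and 5.20 FPKM) after a log2 change of -1.02 at 16 h (difference 1.09, adjusted p = 0.00181). The YAP and TEAD target genes that rose and fell numbered 1 and 3 without library 11 and 1 and 4 without library 12. CYR61 lost its call without library 11 or 12 (limma adjusted p = 0.0556 and 0.0632). NT5E and TPM4 did not pass with a common sum over all genes (adjusted p = 0.0694 and 0.171).

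RNAs made from the mitochondrial genome were higher. Of 15 tested mitochondrially encoded genes, 12 rose and 0 fell, with a median log2 change of 0.57. For mitochondrially encoded genes the counts became 9 and 1 (median 0.38) with a common sum over all genes and 10 and 0 with one over nuclear genes. These 15 genes comprise 13 that encode subunits of the respiratory chain and ATP synthase, of which 12 rose, and 2 ribosomal RNAs, neither of which passed. MT-CYB, cytochrome b of complex III, had 6347 and 6893 FPKM in the 20 nM libraries, against 3830.3 and 4033 FPKM in the solvent libraries (log2 change 0.75, SE 0.07, limma adjusted p = 0.000211). MT-ND6, the one subunit gene on the light strand, had 3803 and 3910.5 FPKM in the 20 nM libraries, against 1865 and 2134 FPKM in the solvent libraries (log2 change 0.95, SE 0.08, limma adjusted p = 0.000117), and MT-CO1, of complex IV, had 14048 and 15388 FPKM in the 20 nM libraries, against 9069.7 and 9709.5 FPKM in the solvent libraries (log2 change 0.65). MT-ATP8 had the largest FPKM of the table, 117350.4 and 131549.8 FPKM in the 20 nM libraries, against 69910.2 and 74112 FPKM in the solvent libraries (log2 change 0.79); it is short and overlaps MT-ATP6, so its share of reads is uncertain. The ribosomal RNA MT-RNR2 had 7729 and 7454 FPKM in the 20 nM libraries, against 6994 and 7272 FPKM in the solvent libraries and MT-RNR1 3213 and 3488 FPKM in the 20 nM libraries, against 3376 and 3457 FPKM in the solvent libraries. At 16 h 3 of the 15 rose and 1 fell. As given above, the solvent libraries of 24 h had lower mitochondrial shares than the other 10 libraries, and the part of this in the result was not tested. MT-RNR1 passed as lower with a common sum over all genes (adjusted p = 0.0189).

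Most nuclear genes of the respiratory chain, ribosomal proteins and proteasome did not pass. More of the called ones rose than fell, by small steps, and this order depends on the scale. Of 44 tested genes of cytosolic ribosomal proteins, 20 rose and 1 fell, with a median log2 change of 0.13. For genes of cytosolic ribosomal proteins the counts became 1 and 12 (median -0.05) with a common sum over all genes and 11 and 7 with one over nuclear genes. RPSA had 2172 and 2172 FPKM in the 20 nM libraries, against 1843 and 1892 FPKM in the solvent libraries (log2 change 0.22) and RPS20 3106 and 3091 FPKM in the 20 nM libraries, against 2062 and 2356 FPKM in the solvent libraries (0.49), whereas RPL37 fell (661 and 627 against 844 and 821 FPKM, -0.37). Of 26 tested genes of mitochondrial ribosomal proteins, 7 rose and 0 fell, with a median log2 change of 0.08. For genes of mitochondrial ribosomal proteins the counts became 3 and 6 (median -0.10) with a common sum over all genes and 5 and 1 with one over nuclear genes. MRPL9 rose by 0.35. Of 41 tested nuclear respiratory chain genes, 9 rose and 3 fell, with a median log2 change of 0.08. For nuclear respiratory chain genes the counts became 1 and 12 (median -0.11) with a common sum over all genes and 3 and 5 with one over nuclear genes. COX7A2, of complex IV, had 1229.5 and 1377 FPKM in the 20 nM libraries, against 897 and 992 FPKM in the solvent libraries (log2 change 0.46, SE 0.08, limma adjusted p = 0.00260), and SDHA, of complex II, fell, with 64.9 and 59.8 FPKM in the 20 nM libraries, against 84.6 and 84.5 FPKM in the solvent libraries (log2 change -0.43, SE 0.05, limma adjusted p = 0.000389). Of 31 tested proteasome genes, 10 rose and 2 fell, with a median log2 change of 0.13. For proteasome genes the counts became 2 and 10 (median -0.06) with a common sum over all genes and 7 and 6 with one over nuclear genes. PSMA3, of the core, rose by 0.36, and PSMD11, of the cap, fell by 0.20 on the log2 scale. With a common sum over all genes each of these 4 medians was below 0, though above the -0.16 of all genes. The genes of cytosolic ribosomal proteins that rose and fell numbered 16 and 5 without library 7 and 6 and 0 without library 11. The genes of mitochondrial ribosomal proteins that rose and fell numbered 5 and 3 without library 7. The nuclear respiratory chain genes that rose and fell numbered 5 and 4 without library 7, 12 and 1 without library 8, 4 and 1 without library 11 and 5 and 2 without library 12. The proteasome genes that rose and fell numbered 5 and 2 without library 11. RPS20 lost its call without library 7, 8 or 11 (limma adjusted p = 0.0710, 0.0675 and 0.133). RPL37 did so without library 8 or 11 (0.0542 and 0.0663). RPSA and RPS20 did not pass with a common sum over all genes (adjusted p = 0.531 and 0.0756).

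Genes of cell death and of p53 passed at rates near those of all genes (14.7% higher and 14.1% lower). Of 28 tested p53 target genes of 30 listed, 5 rose and 4 fell, with a median log2 change of 0.04. For p53 target genes the counts became 3 and 12 (median -0.13) with a common sum over all genes and 5 and 6 with one over nuclear genes. CDKN1A, the p53-induced inhibitor p21, did not pass, at 7.92 and 7.24 FPKM in the 20 nM libraries, against 6.44 and 7.74 FPKM in the solvent libraries, and neither did MDM2 (40.6 and 46.1 against 45.9 and 45.1 FPKM). PMAIP1, which encodes the death inducer NOXA, rose, with 37.3 and 35.9 FPKM in the 20 nM libraries, against 26.4 and 24.8 FPKM in the solvent libraries (log2 change 0.50, SE 0.05, limma adjusted p = 0.000213), and so did TRIAP1 (0.58), whereas CCNG1 fell (-0.34). Of 16 tested BCL2 family and related genes of 20 listed, 3 rose and 2 fell, with a median log2 change of 0.07. For BCL2 family and related genes the counts became 1 and 5 (median -0.10) with a common sum over all genes and 2 and 2 with one over nuclear genes. BCL2L1, the survival factor BCL-XL, fell, with 38.5 and 33.6 FPKM in the 20 nM libraries, against 49.1 and 49.5 FPKM in the solvent libraries (log2 change -0.44), and so did the BH3-only gene BAD (-0.45). MCL1, a short-lived survival factor, had 61.9 and 63.3 FPKM in the 20 nM libraries, against 60.8 and 58.5 FPKM in the solvent libraries and did not pass. BCL2L11, which encodes BIM, rose, with 12.9 and 17.6 FPKM in the 20 nM libraries, against 10.7 and 8.28 FPKM in the solvent libraries (0.62). The p53 target genes that rose and fell numbered 5 and 2 without library 8 and 5 and 2 without library 11. BCL2L11 lost its call without library 8 or 12 (limma adjusted p = 0.137 and 0.151). BCL2L11 did not pass with a common sum over all genes (adjusted p = 0.0703). MDM2 passed as lower with a common sum over all genes (adjusted p = 0.0106).

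Of all 13458 tested genes, 14.7% rose and 14.1% fell, and 573 rose and 4662 fell with a common sum over all genes. The lists below are to be read against these shares. Of 31 tested hypoxia targets of 33 listed, 3 rose and 5 fell, with a median log2 change of -0.02. For hypoxia targets the counts became 0 and 11 (median -0.20) with a common sum over all genes and 1 and 7 with one over nuclear genes. P4HA2, a collagen prolyl hydroxylase, had 16.3 and 16.8 FPKM in the 20 nM libraries, against 31.1 and 30.6 FPKM in the solvent libraries (log2 change -0.86, SE 0.09, limma adjusted p = 0.000260). Of 21 tested glycolysis genes, 3 rose and 5 fell, with a median log2 change of -0.01. For glycolysis genes the counts became 1 and 12 (median -0.19) with a common sum over all genes and 1 and 6 with one over nuclear genes. The lactate exporter SLC16A1 rose by 0.36 and PFKL, a phosphofructokinase, fell by 0.31 on the log2 scale. Of 15 tested Wnt target genes of 21 listed, 3 rose and 5 fell, with a median log2 change of -0.25. For Wnt target genes the counts became 0 and 8 (median -0.41) with a common sum over all genes and 2 and 7 with one over nuclear genes. SOX4 (23.9 and 23.4 against 33.5 and 33.0 FPKM, log2 change -0.47), SOX9 (-0.44) and EPHB2 (-0.49) fell, and DKK1, a secreted Wnt inhibitor, rose (655 and 728 against 574 and 595 FPKM, 0.24). Of 30 tested genes of the ATF4 amino acid response of 32 listed, 7 rose and 4 fell, with a median log2 change of 0.01. For genes of the ATF4 amino acid response the counts became 2 and 16 (median -0.18) with a common sum over all genes and 6 and 6 with one over nuclear genes. SLC38A2, an amino acid transporter, had 257 and 278 FPKM in the 20 nM libraries, against 200.1 and 205 FPKM in the solvent libraries (log2 change 0.40, SE 0.04, limma adjusted p = 0.000402), after a log2 change of -0.79 at 16 h (difference 1.19, adjusted p = 8.71e-05). The factor ATF5 fell (-0.40). Of 21 tested NRF2 target genes of 23 listed, 4 rose and 7 fell, with a median log2 change of 0.00. For NRF2 target genes the counts became 1 and 11 (median -0.18) with a common sum over all genes and 4 and 8 with one over nuclear genes. Thioredoxin, TXN, rose by 0.33 and malic enzyme, ME1, fell by 0.57 on the log2 scale. Of 27 tested autophagy and lysosome genes of 28 listed, 5 rose and 2 fell, with a median log2 change of 0.05. For autophagy and lysosome genes the counts became 2 and 7 (median -0.13) with a common sum over all genes and 4 and 4 with one over nuclear genes. The autophagy receptor NBR1 rose by 0.38, and the lysosomal protease CTSB fell by 0.18 on the log2 scale. The hypoxia targets that rose and fell numbered 2 and 2 without library 7, 1 and 5 without library 8, 0 and 2 without library 11 and 0 and 2 without library 12. The glycolysis genes that rose and fell numbered 4 and 2 without library 8, 1 and 2 without library 11 and 1 and 1 without library 12. The Wnt target genes that rose and fell numbered 1 and 5 without library 11 and 1 and 4 without library 12. The genes of the ATF4 amino acid response that rose and fell numbered 6 and 2 without library 11 and 4 and 3 without library 12. DKK1 lost its call without library 11 (limma adjusted p = 0.0538). CTSB did so without library 8 or 11 (0.0814 and 0.141). DKK1 did not pass with a common sum over all genes (adjusted p = 0.452).

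Outside the lists, the rule for the largest changes named a few more protein-coding genes. VGF, a neuropeptide precursor, had 16.2 and 14.0 FPKM in the 20 nM libraries, against 3.68 and 3.59 FPKM in the solvent libraries (log2 change 1.79, SE 0.08, limma adjusted p = 7.99e-06), and KRTAP3-2, a keratin-associated protein of hair, had 7.19 and 5.96 FPKM in the 20 nM libraries, against 0.960 and 1.19 FPKM in the solvent libraries (log2 change 1.87, SE 0.15, limma adjusted p = 0.000112). On the lower side, LAMA5, a laminin chain of basement membranes, had 20.9 and 20.5 FPKM in the 20 nM libraries, against 45.4 and 45.0 FPKM in the solvent libraries (log2 change -1.09, SE 0.10, limma adjusted p = 0.000160). That the libraries of the 2 groups did not overlap was a condition of the rule. NEURL1B, a ubiquitin ligase of the Notch pathway (1.86 and 1.89 against 6.05 and 4.96 FPKM, log2 change -1.17), OLFM2 (2.00 and 2.61 against 6.39 and 6.34 FPKM, -1.16), PALM, a lipid-anchored membrane protein (5.97 and 6.40 against 13.6 and 13.7 FPKM, -1.03), its relative PALM3 (13.5 and 10.3 against 25.3 and 24.2 FPKM, -1.01), SDC3 (8.16 and 10.4 against 17.7 and 19.9 FPKM, -0.95), the Wnt receptor FZD2 (5.64 and 5.44 against 11.8 and 10.8 FPKM, -0.91), the transcription factor MLXIPL (3.6 and 4.12 against 9.66 and 6.99 FPKM, -0.93) and PET100, an assembly factor of complex IV (30.4 and 34.1 against 75.8 and 56.1 FPKM, -1.0), fell. SUN2, of the inner nuclear membrane, which links the nucleus to the cytoskeleton, had 12.3 and 10.8 FPKM in the 20 nM libraries, against 22.8 and 22.8 FPKM in the solvent libraries (log2 change -0.93, SE 0.06, limma adjusted p = 5.13e-05). AC008764.4 had 0 and 2.31 FPKM in the 20 nM libraries, against 3.35 and 7.95 FPKM in the solvent libraries; with 1 of the 4 libraries listed at 0, no fold is given. PET100 lost its call without library 7 or 11 (limma adjusted p = 0.0596 and 0.0908). AC008764.4 did so without library 7 or 12 (0.216 and 0.219).

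Several of the noncoding genes and pseudogenes with the largest changes had values far apart within a group. The small RNA BCYRN1, made by RNA polymerase III, was listed at 0 in both 20 nM libraries, against 610 and 719 FPKM in the solvent libraries (limma adjusted p = 2.84e-05). It was also listed at 0 in both solvent libraries of 16 h, against which the 20 nM libraries of 16 h had 82.7 and 435.6 FPKM, so its values switch between 0 and high levels among groups. RF02164, another short RNA gene, was listed at 0 in both 20 nM libraries, against 94.2 and 108.8 FPKM with solvent. RN7SK, which holds the elongation factor P-TEFb inactive, had 41.9 and 220.2 FPKM in the 20 nM libraries, against 21.7 and 11.1 FPKM in the solvent libraries, with most of the rise in 1 library. The pseudogenes SNRPGP15 (50.8 and 43.0 against 8.72 and 0 FPKM) and AL590762.4 (6.16 and 5.12 against 0 and 0 FPKM) rose, and the pseudogene PLEKHA8P1 (3.49 and 3.64 against 6.67 and 12.1 FPKM), the antisense gene AL807752.3 (0 and 0 against 16.5 and 2.98 FPKM) and AL035252.4 (0 and 0 against 4.04 and 16.2 FPKM), whose annotation awaits experimental support, fell. AL590762.4 was listed at 0 in every library except 7 and 8. It was thus tested only because of the 20 nM libraries of 24 h, in which it could only be found higher. Short genes and copies of expressed genes have unsteady estimates, and a 0 among them may be a failed one. The antisense RNA DGUOK-AS1 was steadier, with 48.3 and 43.1 FPKM in the 20 nM libraries, against 20.5 and 19.5 FPKM in the solvent libraries (log2 change 1.15, SE 0.12, limma adjusted p = 0.000342), and AC011446.2, also antisense, had 8.23 and 2.24 FPKM in the 20 nM libraries, against 1.15 and 1.18 FPKM in the solvent libraries. How the counting treated strand is not given in the sources used here, and the reads of an antisense gene and its partner may be mixed. Of 11 tested small noncoding RNAs of 17 listed, 1 rose and 1 fell, with a median log2 change of 0.00. For small noncoding RNAs the counts became 1 and 1 (median -0.03) with a common sum over all genes and 1 and 1 with one over nuclear genes. Of 15 tested known long noncoding RNAs of 19 listed, 7 rose and 2 fell, with a median log2 change of 0.15. For known long noncoding RNAs the counts became 3 and 4 (median -0.04) with a common sum over all genes and 6 and 4 with one over nuclear genes. MALAT1, a nuclear RNA (225 and 184 against 132 and 161 FPKM, log2 change 0.48), PVT1 (37.9 and 34.5 against 24.0 and 26.4 FPKM, 0.50), CYTOR (54.7 and 55.6 against 39.9 and 37.2 FPKM, 0.51) and the snoRNA host SNHG1 (202 and 181 against 144 and 147 FPKM, 0.39) rose, and H19, an imprinted RNA, fell (2.08 and 1.41 against 4.05 and 3.26 FPKM, -0.77). The known long noncoding RNAs that rose and fell numbered 3 and 1 without library 11. RN7SK lost its call without library 12 (limma adjusted p = 0.0905). PLEKHA8P1 did so without library 7 or 12 (0.0540 and 0.0852). AL035252.4 did so without library 7, 8 or 12 (0.0815, 0.0810 and 0.156). AC011446.2 did so without library 7, 11 or 12 (0.250, 0.157 and 0.143). MALAT1 did so without library 7 or 11 (0.0685 and 0.0895). PVT1 did so without library 11 (0.0548). AC011446.2 and MALAT1 did not pass with a common sum over all genes (adjusted p = 0.0565 and 0.0655).

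Calls differed with transcript length. Among protein-coding genes the median length of the longest annotated transcript was 2947 bases for 1825 genes that rose, 4075 bases for 1796 that fell and 3731 bases for 8039 that did not pass. The genes were put in 5 bins of equal size by length. In the bin with the shortest transcripts (median 1593 bases) 23.3% rose and 10.1% fell, and in the bin with the longest (median 7554 bases) 9.13% rose and 18.6% fell. The bins between them had, from shorter to longer, 18.3%, 16.6% and 11% higher and 14.3%, 16.8% and 17.3% lower, so rises became rarer and falls more frequent with length. At 16 h the shortest bin had 9.34% higher and 9.60% lower and the longest 3.86% and 12.8%. The part of length in the counts of the gene lists was not tested.

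**Figure D5:**
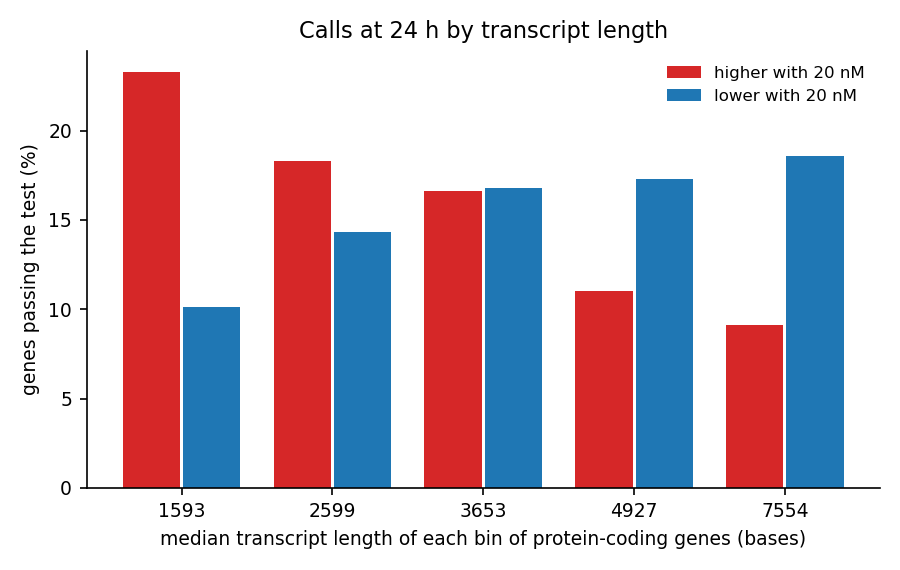
Share of protein-coding genes that rose (red) or fell (blue) with 20 nM against solvent at 24 h (vertical axis, percent) in 5 bins by transcript length (horizontal axis, median length in bases). Rises go down from 23.3% to 9.13% of genes across the bins, and falls reach 18.6% in the bin with the longest transcripts.

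Over all genes, the effects of 20 nM at 24 h and at 16 h, which come from separate libraries, shared part of their calls. Both tests use the same pooled estimate of each gene's spread, so the calls at the 2 times are not independent. At 16 h 2388 genes (17.7%) passed. Both times called 1185 genes, 30.5% of the calls at 24 h and 49.6% of those at 16 h. Of these, 1002 had the same direction and 183 the opposite one, 99 higher at 24 h and lower at 16 h and 84 lower at 24 h and higher at 16 h. By the test of the difference itself 1550 genes (11.5%) passed, 950 with a more positive and 600 with a more negative effect at 24 h. Histone genes hold 5 of the 6 largest positive differences by the naming rule, and the sixth is PTBP2, a splicing repressor of neurons. Of the 5, HIST1H4H, HIST1H2BO, HIST2H4A and HIST1H2AM lost this call without some single libraries, as listed with the flagged results. PTBP2 rose at 24 h, with 12.7 and 18.1 FPKM in the 20 nM libraries, against 10.0 and 6.0 FPKM in the solvent libraries (log2 change 0.88), and fell at 16 h, with 4.81 and 6.22 FPKM with 20 nM at 16 h, against 12.1 and 12.6 FPKM with solvent at 16 h (difference 1.92, adjusted p = 0.00726). On the negative side SUN2 had 25.6 and 25.7 FPKM with 20 nM at 16 h, against 20.8 and 21.8 FPKM with solvent at 16 h, so its fall at 24 h gave a difference of -1.18 (adjusted p = 0.000391). PIMREG, a mitotic regulator of chromatin, had log2 changes of -0.47 at 24 h and 0.52 at 16 h (difference -0.99), PALM -1.03 and 0.04 (-1.07), FAM102A -0.68 and 0.42 (-1.10), and ZNF286B -0.39 and 0.61 (-1.0). PTBP2 lost its call without library 8 or 12 (limma adjusted p = 0.101 and 0.106). FAM102A did so without library 7, 11 or 12 (0.108, 0.0768 and 0.104). ZNF286B did so without library 7, 8, 11 or 12 (0.148, 0.0890, 0.140 and 0.141). FAM102A lost the call of its difference between times without library 1, 5, 6, 7, 11 or 12 (limma adjusted p = 0.0760, 0.0926, 0.0635, 0.0677, 0.0736 and 0.0841).

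The dose comparison at 24 h called few genes. Between 20 nM and 100 nM, 657 genes (4.88%) passed, 412 higher (3.06%) and 245 lower (1.82%) with 20 nM. These calls rest on the spread pooled over all groups and on single libraries: they were 42 without library 9, 81 without library 10, 122 without library 8, 1511 without library 7, and 4 when only the libraries of the contrast were fitted. Of the mitosis list 16 genes were higher with 20 nM and 8 lower, of the replication list 6 were higher and none lower, and of the mitochondrially encoded list 5 were higher and none lower. CDK1 had 49.5 and 49.2 FPKM with 20 nM, against 34.0 and 33.3 FPKM with 100 nM (log2 difference 0.54, adjusted p = 0.00264), and TUBB 753 and 788 against 562 and 590.3 FPKM (0.42, adjusted p = 0.00220). CCNB1 had 259 and 254 FPKM with 20 nM, against 328 and 323 FPKM with 100 nM (-0.34, adjusted p = 0.00564). Among the largest differences, GMPR, a guanosine nucleotide reductase (0.64), CHKB, a choline kinase (0.65), the repressor BACH1 (0.65), MT-ATP8 (0.66), C19orf81 (0.81) and AC034102.2 (1.06) were higher with 20 nM. The RNA polymerase subunit POLR2L (-0.71), STC2, a secreted glycoprotein (-0.73), TAGLN (-0.64), WTIP (-0.61), PKD1P1 (-0.69) and AC068631.2 (-0.75) were lower. None of these 12 passed without library 9. Both doses share the solvent libraries at 24 h, where 4550 genes (33.8%) passed for 100 nM, 2075 higher (15.4%) and 2475 lower (18.4%), against the 1984 and 1896 given above for 20 nM. CCNB1 lost the call between doses without library 9 (limma adjusted p = 0.0635).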

How the data were processed

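Polyadenylated RNA of HCT116 cells was sequenced in 12 libraries. The authors deposited 1 table of FPKM per gene, made with RSEM 1.2.28 on GRCh38 per the submitters' processing notes. RSEM divides reads shared by near-identical genes by estimation. Which aligner, gene annotation release and strand option were used is not given in the sources used here. Column headers give dose, time and a running number, so each column was mapped to its group and not to 1 sample. The table holds 58174 genes, of which 57836 matched a GENCODE 29 symbol. Values were tested as log2(FPKM + 1) with limma 3.58.1 in R 4.3.3 (6 group means, trended prior, Benjamini-Hochberg adjustment over 13458 genes with at least 1 FPKM in 2 of 12 libraries), and checked on simulated data. All 12 libraries share 1 estimate of the spread, with 6 residual degrees of freedom. Libraries of 1 group had Pearson correlations of 0.991 (20 nM, 24 h) and 0.993 (solvent, 24 h) over genes, and about 1% of identical values, so none was counted as a repeat deposit.

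Named genes are, of called protein-coding genes, 15 with the largest rise and 15 with the largest fall, provided that a group mean reached 5 FPKM and libraries did not overlap, 5 and 5 of other gene types, 6 and 6 for the difference between times and between doses, and from each of 36 lists the smallest adjusted p in each direction plus examples of each role. The values of these examples had been seen when they were chosen, and the comparison and the lists were chosen with earlier results of these data known. Of 950 listed symbols 947 were found. Some genes that the rule names are not reported here. Promoters are from RefSeq (GRCh38.p14) and coding starts from GENCODE 29. Alternatives were other scalings, pseudocounts, filters, a constant prior, fits of the contrast's groups alone and fits without each library. Depth is known only as the estimate given with the results, so no counting interval is given. Pearson correlations here are across genes, which are not independent replicates.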

Additional observations from a re-analysis of the deposited data

Results flagged for a closer look

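The effect of 20 nM dolastatin 15 was tested for a difference between 24 h and 16 h, which come from separate libraries, and every result below is given because that test passed (limma adjusted p under 0.05, log2 change at 24 h minus that at 16 h). Over all genes 950 differences were positive and 600 negative. Among histone genes the differences were 1.54 for HIST1H1C, 1.78 for HIST1H4H, 1.92 for HIST1H2BO, 1.68 for HIST2H4A and 2.17 for HIST1H2AM. Genes of replication and its control had 0.96 (CDC6), 0.81 (RFC4), 0.66 (PCNA), 0.59 (MCM5), 0.64 (E2F2) and 0.72 (E2F8). Mitotic genes had -0.90 (PLK1), -0.85 (AURKA), -0.84 (KIF20A), -0.78 (CCNB1), -0.99 (PIMREG), 0.81 (CDK1) and 1.19 (FBXO5). Tubulins had 0.59 (TUBB) and 0.28 (TUBA1C). The other positive differences were 1.03 (IFIT2), 0.50 (IFIT1), 1.19 (SLC38A2), 1.09 (CTGF) and 1.92 (PTBP2). The other negative ones were -0.91 (BAG3), -1.18 (SUN2), -1.07 (PALM), -1.10 (FAM102A), -1.0 (ZNF286B) and -4.56 (AC008764.4, whose libraries hold a value of 0, so that its size depends on the pseudocount). HIST1H4H lost the call of its difference between times without library 2, 6 or 11 (limma adjusted p = 0.0706, 0.0602 and 0.0711). HIST1H2BO did so without library 2, 5 or 12 (0.0789, 0.0657 and 0.0722). HIST2H4A did so without library 1, 5, 6, 11 or 12 (0.105, 0.0700, 0.0901, 0.0989 and 0.0693). HIST1H2AM did so without library 1, 2, 5, 6, 11 or 12 (0.103, 0.0720, 0.108, 0.0567, 0.0723 and 0.0939). TUBA1C did so without library 1 or 11 (0.0617 and 0.0524). IFIT1 did so without library 2, 5 or 12 (0.0728, 0.0681 and 0.0651). FAM102A did so without library 1, 5, 6, 7, 11 or 12 (0.0760, 0.0926, 0.0635, 0.0677, 0.0736 and 0.0841). TUBA1C and IFIT1 lost the call of the difference with a common sum over all genes (adjusted p = 0.324 and 0.0630). TUBA1C lost the call of the difference with a common sum over nuclear genes (adjusted p = 0.0726).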

How the results depend on the processing

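No paired analysis was possible because the columns carry a group and a library number but no sample number of the labels. At 24 h 1984 genes were higher and 1896 lower with 20 nM. These counts were 573 and 4662 with a common sum over all genes, 1329 and 2686 with one over nuclear genes, and 495 and 532 when only the 4 libraries of the contrast were fitted. They ranged over 1082 to 1823 higher and 1071 to 1717 lower without 1 library. The differences between times, 950 positive and 600 negative, became 346 and 2116 with the common sum, 629 and 944 with the nuclear sum, 609 and 399 with no filter and 592 and 362 with the groups of the contrast alone. Without 1 library they ranged over 426 to 974 positive and 268 to 779 negative. Between doses, 412 higher and 245 lower became 166 and 797 with the common sum, 209 and 125 with no filter, and 1 and 3 with the contrast's groups alone. The lower ones were 387 under median-of-ratios scaling and 127 with a constant prior variance. Without 1 library the counts ranged over 32 to 722 higher and 10 to 789 lower. The mitochondrial share differed by 6.53 percentage points, by 3.34 without MT-ATP8, and by 5.52 to 7.53 without 1 library. Of the named genes, the sign turned with a common sum over all genes for DNAJB11 (-0.041), TUBB6 (-0.14), MYBL2 (-0.013) and KRT8 (-0.17). Of the named genes called at 24 h, 208 kept their call with the common sum, 38 lost it with the same sign and 2, DNAJB11 and MYBL2, lost it as the sign turned. With the nuclear sum 238 kept and 10 lost their call, as did 215 and 33 with no filter, 239 and 9 with a constant prior, and 151 and 97 with the contrast's groups alone. Pseudocounts of 0.1 and 0.5 and median-of-ratios scaling ended at most 2 calls, and a minimum of 5 FPKM or protein-coding genes alone ended none of the 232 calls they could test. The causes were not tested. With 2 libraries a group, small changes of genes at low FPKM are beyond detection, and their counting error is unknown.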
